A study of Caenorhabditis elegans with 2 samples.

Results

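Autosomal peaks of the transcription factor SNPC-4 that lie between protein-coding genes pointing away from each other are described here, in L3 larvae of *Caenorhabditis elegans*. A peak of the authors' thresholded list was taken when its summit lay within 500 bp of protein-coding 5′ ends on both strands, with the minus-strand 5′ end to the left of the plus-strand one. Summits within 500 bp of the 5′ end of a tRNA, snRNA, snoRNA, miRNA, spliced leader RNA, histone or ribosomal protein gene were left out. This gave 336 peaks of 2672 in all (12.6%), or 15.2% of the 2214 autosomal peaks. They fell on 335 gene pairs with 670 genes, since 1 pair held 2 peaks. The rule used positions and the authors' threshold, not the strength of a peak.

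Chromatin immunoprecipitation followed by sequencing was carried out on whole mixed-sex L3 larvae of strain OP179, genotype unc-119(ed3) III; wgIs179, which carries SNPC-4 fused to eGFP as a transgene. There were 2 biological replicates of 1 group and no second condition. Every value is therefore a description of where SNPC-4 was found, and no test between groups was possible. The labels give snpc-4 as the antibody, so whether only the tagged protein was recovered cannot be told. The endogenous *snpc-4* gene is not named in the genotype, and a whole larva mixes all tissues, so a peak present in few cells cannot be told apart from a weak peak in many.

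SNPC-4 is the DNA-binding subunit of SNAPc, the complex that starts transcription of small nuclear RNA genes in animals, and in *C. elegans* it also acts at spliced leader and piRNA genes. In a divergent promoter a single stretch of DNA lies between the starts of neighbouring genes read in opposite directions, so a factor bound there is near both. Most worm messenger RNAs receive a spliced leader in place of their first bases, so an annotated 5′ end often lies downstream of where transcription starts.

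The DNA under the summits is shown for 6 members. They were chosen among the strong members and among carriers of short words that the members share. Each sequence is from the RefSeq assembly WBcel235 (ce11), plus strand, 5′ to 3′. It is centred on the summit, except at *ctf-4*/*eef-1G*, where it stops before the 5′ end of *eef-1G*. Capitals mark matches on either strand to the 8-base words and to the 6-base words with CG described further on, and a sequence without capitals holds none of these. Matches to GAGAAA are not marked.
*Y71H2AM.20*/*cox-6B*, chrIII:2786002-2786101: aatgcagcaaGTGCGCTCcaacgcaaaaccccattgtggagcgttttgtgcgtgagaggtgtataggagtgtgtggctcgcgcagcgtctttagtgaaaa
*drr-2*/*set-16*, chrIII:13643721-13643820: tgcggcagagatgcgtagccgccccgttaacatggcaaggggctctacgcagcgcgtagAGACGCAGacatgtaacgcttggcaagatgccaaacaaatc
*ctf-4*/*eef-1G*, chrV:10965630-10965718: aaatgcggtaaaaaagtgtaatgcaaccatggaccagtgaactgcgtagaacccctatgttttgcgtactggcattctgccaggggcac
*Y57E12AL.6*/*Y57E12AL.1*, chrV:7060488-7060587: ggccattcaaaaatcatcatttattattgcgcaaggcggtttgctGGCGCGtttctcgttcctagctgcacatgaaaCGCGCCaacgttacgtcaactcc
*C17H12.2*/*vha-8*, chrIV:6790560-6790659: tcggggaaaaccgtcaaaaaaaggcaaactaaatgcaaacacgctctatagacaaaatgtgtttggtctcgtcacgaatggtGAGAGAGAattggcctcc
*haf-3*/*F57A10.2*, chrV:15766342-15766441: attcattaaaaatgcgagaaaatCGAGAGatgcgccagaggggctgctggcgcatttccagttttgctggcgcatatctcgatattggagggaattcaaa

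The strongest member lay between *Y71H2AM.20*, annotated as an activator of protein phosphatase 2A, and *cox-6B*, a subunit of cytochrome c oxidase. Its signal, a deposited value in an arbitrary unit that ranks regions within 1 list, was 258 in the thresholded list, where it ranked 83. It ranked 78 in the replicate 1 list (signal 155) and 111 in the replicate 2 list (signal 98.9). The peak ran from 2785962 to 2786138 on III, with the summit 104 bp from the 5′ end of *Y71H2AM.20* and 150 bp from that of *cox-6B*. The second, at *T28D9.11*/*T28D9.1* (II, 6491783 to 6492008, signal 244, rank 88), was as high in both replicates, with rank 96 in replicate 1 and rank 93 in replicate 2. Both of its genes encode uncharacterized proteins. Next in strength was *malt-1*/*ceh-38* (II, 6951432 to 6951727, signal 217), beside the genes of a paracaspase and of a ONECUT homeobox factor, with rank 93 in replicate 1 and rank 137 in replicate 2. Only the first 2 members were among the 100 strongest peaks of the series.

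The next strongest members lay at genes of several kinds. The pair *ndk-1*/*cert-1*, for a nucleoside diphosphate kinase and a ceramide transfer protein, had a signal of 205 and ranked 110. The peak at *nlp-4*/*exos-3*, for a neuropeptide-like protein and a subunit of the RNA exosome, had a signal of 196 and ranked 127 in replicate 1 and 107 in replicate 2. At *mcrs-1*/*atp-1* the summit lay 3 bp from the annotated 5′ end of *atp-1*, the alpha subunit of ATP synthase (signal 151, rank 162). The pair *drr-2*/*set-16*, for an RNA-binding protein and a histone methyltransferase, had a signal of 139 (rank 244 in replicate 1, 156 in replicate 2). Both genes of *sec-61.B*/*trap-3* act where proteins enter the endoplasmic reticulum, and their peak (signal 136) lay in a wide gap of 770 bp. The peak at *ctf-4*/*eef-1G*, for a replisome protein and a translation elongation factor, had a signal of 135 and lay in a gap of 180 bp. None of these ranked lower than 287 in either replicate list.

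The rest of the 20 strongest members had signals of 119 to 153. They were *gpap-1*/*scpr-1*, *Y57E12AL.6*/*Y57E12AL.1*, *ska-1*/*Y106G6H.16*, *imb-1*/*mfsd-13.1*, *rheb-1*/*spk-1*, *C17H12.2*/*vha-8*, *npp-14*/*cel-1*, *dnj-22*/*natc-1*, *hda-6*/*F41H10.4*, *lin-7*/*elof-1* and *W04D2.4*/*rbm-25*. Among them *ska-1* encodes a kinetochore protein, *imb-1* an importin and *npp-14* a nucleoporin. *cel-1* encodes the messenger RNA capping enzyme, *rheb-1* a GTPase of the TOR pathway, *spk-1* a kinase of splicing factors and *vha-8* a subunit of the proton pump of acidic organelles. The ranks of these 11 in single replicates ran from 159 to 367, so none was carried by 1 replicate.

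Members were of middling strength as a group. Their signal had a median of 53.5 (quartiles 38.8 and 75.8, range 29.2 to 258) and their median rank was 1079. Single promoters, the 764 autosomal peaks near protein-coding 5′ ends without such a pair, had a median signal of 49.6 and a median rank of 1239.5. The divergent members thus ranked higher (difference in median rank -160.5 places), and their quartiles overlapped widely with those of single promoters (ranks 553.25 and 1821.5 in members, 644.75 and 1930.5 in single promoters). The order was the same in each replicate, where members had a median rank of 1117 in replicate 1 and 1273.5 in replicate 2, against 1263 and 1366 for single promoters. In the stronger 50% of the list the difference fell to -38.5 places. The 533 intergenic peaks had a median signal of 42.7, and the 302 peaks inside genes one of 41.6. Of the members, 75 (22.3%) were among the 500 strongest peaks, against 17.7% of single promoters. The 100 strongest held 2 members (0.595% of the set, interval 0.0722 to 2.13) and 10 single promoters (1.31%, interval 0.629 to 2.39). These intervals overlapped, and the share over all thresholded peaks was 3.74%. The 100 strongest also held 57 peaks at small RNA, histone or ribosomal protein genes (20.4% of that set). The rest were 12 mitochondrial peaks (46.2%), 11 inside genes (3.64%), 4 intergenic (0.750%) and 4 on the X chromosome (0.926%).

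The replicates were compared through their own lists of 30000 regions, which hold background as well. Of the 336 members, 333 overlapped a region of replicate 1 and 334 one of replicate 2. Both regions ranked within the first 2672 for 231 members (68.8%, exact binomial 95% interval 63.5 to 73.7), where all thresholded peaks gave 66.1%. The share of members was thus near the background of the list. With an overlap of at least 50% of both lengths asked for, the order turned, with 54.2% of members and 56.5% of all thresholded peaks. With any overlap allowed, 12 members had a region in both lists and neither ranked within the first 2672. Across the 331 members found in both lists, Spearman's correlation of the ranks was 0.61, against 0.53 across 2316 other peaks. These points share libraries and the selection by the threshold, and the values are given as a description. The summits of the 2 replicates lay a median of 15 bp apart in members and 26 bp apart in other peaks, and within 50 bp of each other in 91.2% of members and 71.1% of other peaks.

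Some members rested mainly on 1 replicate. The strongest beyond rank 2672 in a list was *E02H1.1*/*tag-124*, for a dimethyladenosine transferase and a tRNA pseudouridine synthase, with rank 595 in replicate 1 (signal 40.7) and 2689 in replicate 2 (signal 14.7). The next were *prpf-4*/*ekl-1*, with rank 2680 in replicate 1 and 832 in replicate 2, and *F23H11.5*/*bra-2*, with rank 722 in replicate 1 and 3340 in replicate 2. The lowest ranks of all were 19718 in replicate 1 at *xpo-7*/*hda-11*, which ranked 629 in replicate 2, and 17844 in replicate 2 at *aars-1*/*rga-1*, which ranked 769 in replicate 1. These 2 pairs were chosen after their values were seen. None of the 20 strongest members was beyond rank 367 in either list.

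**Figure D1:**
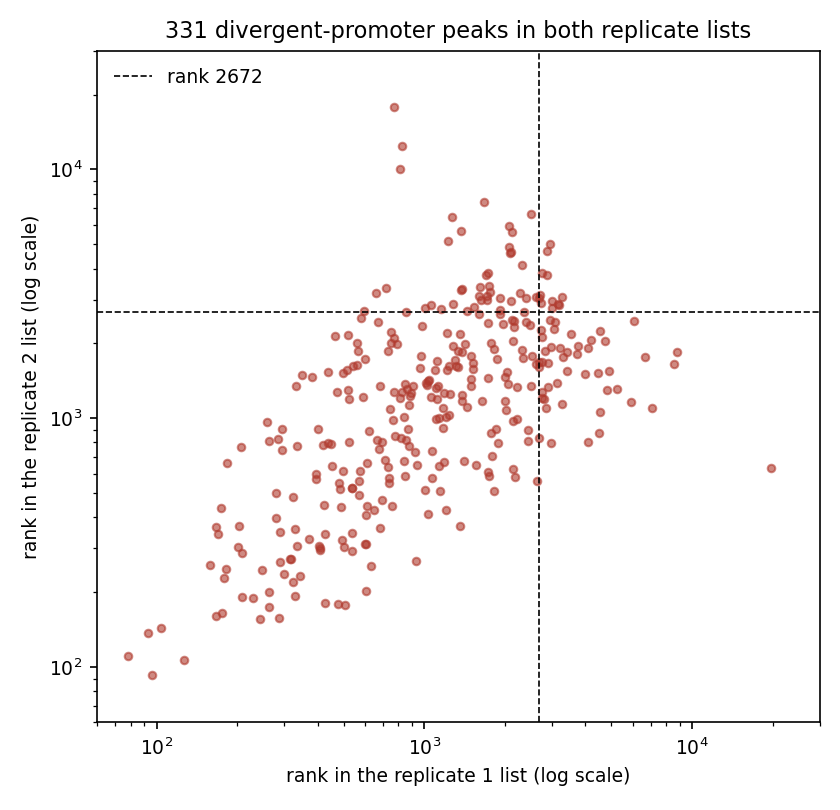
Ranks of the 331 members found in both replicate lists, replicate 1 on the x axis and replicate 2 on the y axis, both on log scales, with 1 point a peak and dashed lines at rank 2672. Points in the lower left quadrant are the 231 members within the first 2672 regions of both lists.

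Where the summit lay between the genes was the next question. In 316 of 336 members (94.0%, exact 95% interval 91.0 to 96.3) it lay between both annotated 5′ ends. For the 91 members with gaps of 500 bp or more the rule leaves no other place. Among the 245 with shorter gaps, where it does, 225 summits lay between (91.8%, interval 87.7 to 94.9). The summit of the matched region lay between them 312 times in replicate 1 and 312 times in replicate 2. The gap between the 5′ ends had a median of 398 bp, with quartiles of 283.25 and 519 bp. The 316 summits in the gap lay a median of 57 bp from its middle. The rule bears on this value, since the stretch within 500 bp of both 5′ ends is centred on the middle and narrows as the gap widens. Measured from 0 at the minus-strand 5′ end to 1 at the plus-strand 5′ end, their median position was 0.526, with quartiles of 0.377 and 0.663. For the same 316 summits the nearer 5′ end was a median of 139 bp away and the farther one 260.5 bp. In 209 of all 336 members (62.2%) the summit was in the gap and more than 100 bp from both, so that most summits were not at either annotated start. The plus-strand gene was the nearer in 190 members, the minus-strand gene in 143, and 3 summits were equally far from both.

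Among the 316 members with the summit between the 5′ ends, the distances grew with the gap. The 20 members with the summit outside the gap are left out of these ranges. At 1 to 200 bp 36 pairs held a member, and 26 summits lay between the 5′ ends. In gaps of 1 to 200 bp the nearer 5′ end was a median of 28.5 bp from the summit (26 members), and in gaps of 201 to 300 bp it was 85 bp (63 members). It was 166 bp in gaps of 401 to 500 bp (69 members) and 250 bp in gaps of 601 to 1000 bp (49 members). Most of this growth is set by the choice of members, since the nearer distance of a summit in the gap cannot pass the middle, and in gaps over 500 bp the rule keeps summits away from both ends. Strength did not follow the gap in the same way, since the median signal of these 316 members lay between 49.5 and 55.3 in all 6 ranges of gap width. The shortest gap was that of *ppcd-1*/*F25H9.7* (15 bp, signal 66.1), where *F25H9.7* encodes an assembly factor of succinate dehydrogenase. The widest was that of *prpf-4*/*ekl-1* (948 bp, signal 53.8), for a splicing-related kinase and a Tudor-domain protein.

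**Figure D2:**
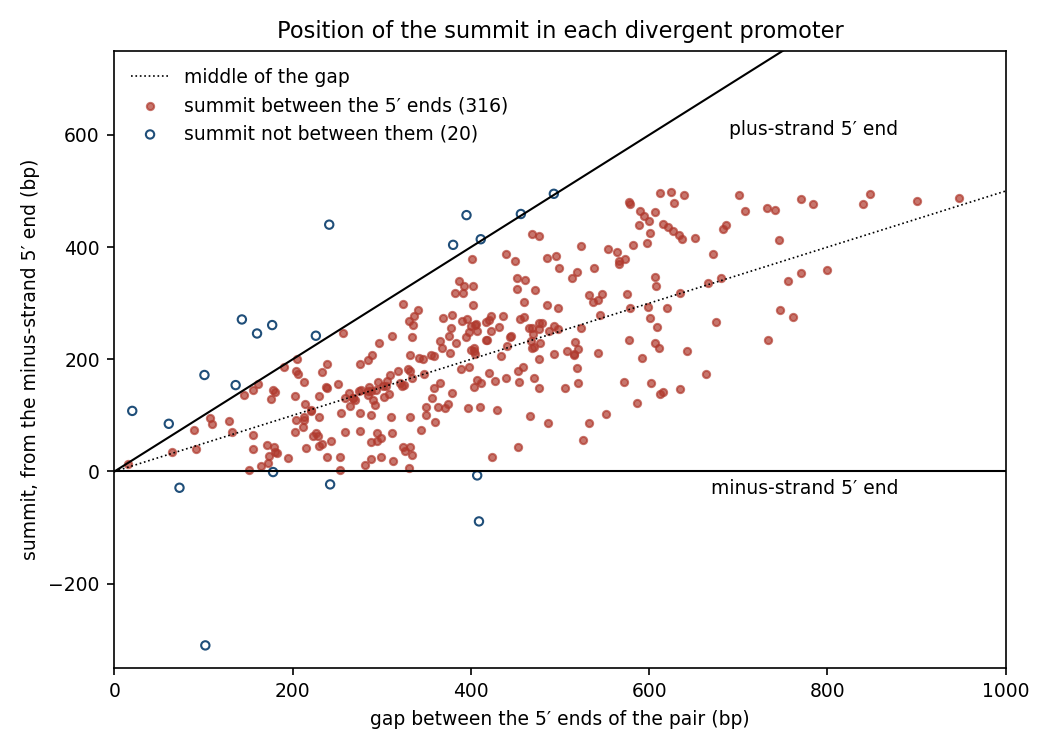
Position of the summit of each of the 336 members, in bp from the minus-strand 5′ end (y axis), against the gap between the 5′ ends of its pair in bp (x axis). Filled points lie between the 5′ ends (316), open points do not (20), the dotted line is the middle of the gap, and the filled points lie a median of 57 bp from it. The rule allows only summits within 500 bp of both 5′ ends.

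The 20 summits outside the gap lay within the transcribed side of a gene, 14 past the plus-strand 5′ end and 6 past the minus-strand one. They included the members at *T28D9.11*/*T28D9.1* and *malt-1*/*ceh-38* described above. At *T28D9.11*/*T28D9.1* the summit lay 89 bp inside *T28D9.11* (signed distance -89), and at *malt-1*/*ceh-38* it lay 16 bp inside *ceh-38* (-16). The farthest was that of *B0491.6*/*pigm-1*, 310 bp inside *B0491.6* (-310, signal 51.6). Of the 20, 4 lay within 3 bp of the annotated start: *F26F4.9*/*cee-1*, *tlf-1*/*cdk-8*, *imp-2*/*enpl-1* and *eif-4A3*/*vps-20*. These pairs were chosen after their positions were seen.

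The single pair with 2 member peaks was *vps-2*/*tiar-2*, for a subunit of the membrane-remodelling ESCRT-III complex and an RNA-binding protein. The stronger of them, with a signal of 79.3, ran from 12768408 to 12768491 on II and peaked 221 bp from *vps-2* and 248 bp from *tiar-2*. The weaker one (12768495 to 12768784, signal 38.6) began just past it, and its summit lay 46 bp from *tiar-2*. Both overlapped the same region in each replicate list (rank 536 in replicate 1, 526 in replicate 2), so the replicate lists did not separate them.

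At the edge of the window, 32 members had the farther 5′ end 450 to 500 bp from the summit. Just inside it were *T28D9.11*/*T28D9.1* (signal 244), *Y39A1A.22*/*mrpl-12* (75.6) and *R53.4*/*psf-1* (30.9), each with the farther 5′ end 498 bp from the summit. Just outside were *nucl-1*/*daf-31* at 502 bp (signal 52.3), *rict-1*/*gfm-1* at 505 bp (73.1) and *aka-1*/*ubc-6* at 505 bp (56.7). At the authors' threshold, the weakest member was *tcab-1*/*apg-1* (rank 2660, signal 29.2). The strongest pooled region between divergent genes that fell below it was that of *Y75B8A.18*/*Y75B8A.19*, for the clathrin light chain and a ubiquitin ligase (rank 2715, signal 28.7).

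Not every divergent promoter had a peak. The autosomes held 1650 divergent protein-coding pairs with 5′ ends at most 1000 bp apart, of which 334 (20.2%, exact 95% interval 18.3 to 22.3) held a member. Any thresholded peak, those near small RNA genes included, was found in 375 (22.7%), and any region of the pooled list in 618 (37.5%). Counted over genes, 859 of 3300 genes in divergent pairs (26.0%, interval 24.5 to 27.6) had a thresholded peak within 500 bp of the 5′ end, against 719 of 13902 genes outside such pairs (5.17%, interval 4.81 to 5.55). A peak between the genes of a pair can count for both, which raises the share of pair genes. The 3300 genes are thus not independent, and the intervals cover counting error only. The sets of genes were not matched by kind of gene.

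The share with a member depended on the gap. It was 16.5% of 218 pairs at 1 to 200 bp, 30.9% of 437 at 201 to 400 bp and 29.4% of 391 at 401 to 600 bp. It was 12.9% of 341 pairs at 601 to 800 bp and 1.52% of 263 at 801 to 1000 bp, where the window of 500 bp around both 5′ ends leaves little room for a summit. Regions of the pooled list followed the same order, with 35.3%, 53.1%, 51.7%, 28.7% and 3.42% of pairs. By chromosome the share was 25.7% on III, 24.7% on I, 22.3% on IV, 15.5% on II and 15.2% on V, and the intervals of neighbours in this order overlapped (20.7 to 31.1 on III, 11.9 to 19.0 on V). In the central 50% of the chromosomes 22.8% of 968 pairs had a member, against 16.6% of 682 pairs in the arms.

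**Figure D3:**
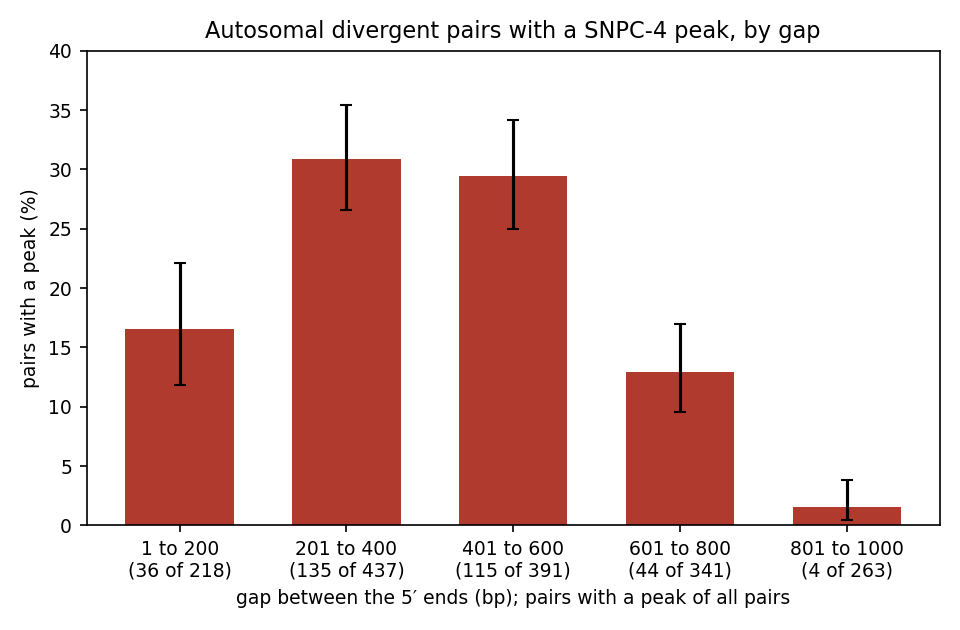
Share of autosomal divergent pairs that held a member peak (y axis, %), by the gap between their 5′ ends (x axis, bp), with exact binomial 95% intervals as bars and the counts under each range. Pairs with gaps of 201 to 600 bp had the highest shares, 30.9% and 29.4%.

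What the genes at the members encode was counted over 23 lists made from gene names. Of all 3300 genes in divergent pairs, 20.3% were at a member. The share was above this in most lists. They included those for RNA processing, translation, protein folding, proteasome, mitochondria, nuclear transport, membrane traffic and chromatin. In some of them the interval includes 20.3%. Among the lists with a share below 20.3% was that for chemoreceptors. The lists were chosen with earlier results of these data known, so the counts are descriptions and carry no test. Products annotated only as uncharacterized made up 3.28% of the 670 member genes and 9.58% of the 2631 genes of pairs without a member.

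Genes that make and process RNA stood high. Of 27 splicing genes in divergent pairs, 18 (66.7%, exact 95% interval 46.0 to 83.5) were at members, and 2 members had genes of this list on both sides. One was *rsp-2*/*rsp-1*, which encode SR proteins (signal 113, rank 289 in replicate 1, 265 in replicate 2), and the other *snr-3*/*rsp-5* (signal 57.1), where *snr-3* encodes a core protein of the spliceosome. The strongest was *clu-1*/*prp-40* (signal 114), with rank 426 in replicate 1 and 181 in replicate 2. The nucleolus and RNA exosome list had 8 of 11 (72.7%, interval 39.0 to 94.0). These included *exos-3*, *fib-1* for the rRNA methylase fibrillarin (signal 78.1, rank 1028 in replicate 1, 412 in replicate 2) and *nol-10* (signal 58.9). The 8 also count *nop-1*, a pseudocleavage gene, and *crn-7*, a nuclease, which were caught by name. Genes of RNA polymerases, general factors and Mediator had 6 of 15 (40%, interval 16.3 to 67.7), led by *taf-11.3* (signal 104), and then *rpb-4* (53.2) and *rpb-3* (52.2), subunits of RNA polymerase II.

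Of the genes that make, fold and degrade proteins, some lists had high shares and others had shares near that of all pair genes. Translation factors had 11 of 22 (50%, interval 28.2 to 71.8), with the elongation factor genes *eef-1G* (signal 135), *eef-2* (102) and *eef-1B.1* (89.9) the strongest. The peak at *eef-1B.1*/*aco-2* ranked 264 in replicate 1 and 813 in replicate 2. Aminoacyl-tRNA synthetases had 3 of 11 (27.3%, interval 6.02 to 61.0), and of these *hars-1* and *aars-1* ranked beyond 2672 in replicate 2. Chaperones had 14 of 30 (46.7%, interval 28.3 to 65.7), among them *dnj-22* (signal 127), *hsp-90* (115) and *cct-7* (104), the last a subunit of the CCT folding chamber. Proteasome subunits had 13 of 20 (65.0%, interval 40.8 to 84.6). The strongest was *rpn-8*, whose partner *mrps-6* encodes a mitochondrial ribosomal protein (signal 94.3), then *rpn-3*, whose partner *hsp-110* is a chaperone gene (84.2), and *pas-3* (72.2). The ubiquitin pathway had 6 of 24 (25%, interval 9.77 to 46.7), all weak, with *ubc-12* the strongest at a signal of 43.5.

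Mitochondrial genes followed. The respiratory chain and ATP synthase list had 10 of 18 (55.6%, interval 30.8 to 78.5), led by *cox-6B* (signal 258), *atp-1* (151) and *atp-3* (83.6). Mitochondrial ribosomal proteins had 11 of 25 (44.0%, interval 24.4 to 65.1), with *mrps-6* (94.3), *mrps-7* (87.8) and *mrpl-12* (75.6). In both lists no pair had its 2 genes from the same list.

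The lists for transport, chromatin and cell division were as follows. Nuclear pore and transport genes had 9 of 20 (45.0%, interval 23.1 to 68.5), led by *imb-1* (signal 135), *npp-14* (129) and *ran-5* (99.5), and chromatin genes 8 of 19 (42.1%, interval 20.3 to 66.5), led by *set-16* (139), the deacetylase gene *hda-6* (125) and *swsn-6* of the SWI/SNF complex (114). Membrane traffic had 13 of 32 (40.6%, interval 23.7 to 59.4), with *sec-61.B* (136), the syntaxin gene *syx-5* (107) and *vps-72* (106), a chromatin gene caught by its name. DNA replication and cell cycle genes had 7 of 22 (31.8%, interval 13.9 to 54.9), with *cdc-6* (107), *pole-4* (64.7) and *div-1* (50.1). That list also counts the transcription kinases *cdk-8* and *cdk-9*.

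The lists of sensory, signalling and tissue genes came last, and of their intervals only that of chemoreceptors lay below 20.3%. Of 146 chemoreceptor genes in divergent pairs 6 were (4.11%, interval 1.52 to 8.73), and not all of the 6 are chemoreceptors, since the list was matched by name and *srrt-1* encodes a homolog of Serrate. The chemoreceptor gene *sri-5* (signal 60.01) shared its promoter with *rsr-1*, a splicing-related gene. Nuclear hormone receptors had 1 of 19 (5.26%, interval 0.133 to 26.0), *nhr-47*, paired with the chaperone gene *dnj-19* (signal 92.8). Neuropeptides had 1 of 10 (interval 0.253 to 44.5), *nlp-4* with *exos-3*, and cuticle collagens 3 of 19 (15.8%, interval 3.38 to 39.6), *bli-6* (signal 75.3), *col-71* (67.9) and *col-2* (40.6). The germline list had *nos-3* (59.8) of 6, the list of SNAPc and 21U-RNA factors 0 of 7 (exact upper bound 41.0%), and the intestine list 0 of 1. The muscle and neuron lists had no gene in a divergent pair. These counts were repeated with only members within the first 2672 regions of 1 replicate list. Splicing genes then had 16 of 27 in each replicate, and proteasome genes 13 of 20 in replicate 1 and 12 in replicate 2. Chemoreceptors had 4 of 146 in replicate 1 and 5 in replicate 2, and all genes of divergent pairs 547 of 3300 in replicate 1 and 555 in replicate 2.

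**Figure D4:**
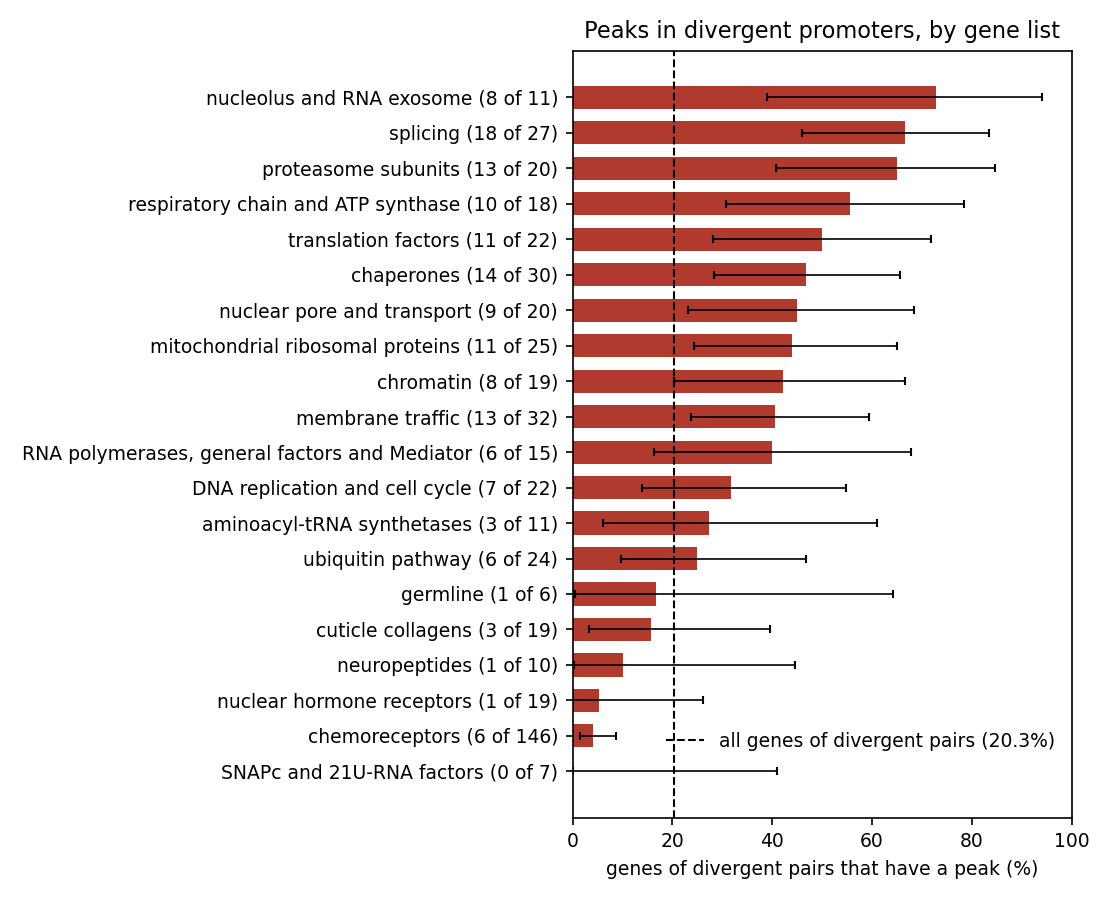
Share of the genes of autosomal divergent pairs that had a member peak (x axis, %), for each gene list with at least 6 genes in such pairs, with exact binomial 95% intervals as bars and counts beside the names. The dashed line is the share over all 3300 genes of divergent pairs, 20.3%, and the bars run from 72.7% in the nucleolus and RNA exosome list down to 0 of 7 in the SNAPc list.

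The DNA under the members was compared with that under other peaks, first with 3 words of 8 bases that were picked as the most in excess over the flanks at the summits of the 2310 nuclear peaks that are not members. Matches were counted on both strands in the 200 bp at the summit. AGACGCAG was found in 23 members (6.85%, interval 4.39 to 10.1), where all nuclear thresholded peaks gave 15.5% and single promoters 17.1%. GAGAGAGA was found in 18 members (5.36%), against 12.1% of all, and AGAGAAAA in 42 (12.5%), against 13.8% of all. Members' flanks, windows of the same length centred 600 bp to the right of the summit and so past the plus-strand 5′ end, held AGACGCAG in 0.893%, GAGAGAGA in 0.298% and AGAGAAAA in 2.68%. At least 1 word was found in 22.02% of members, against 34.9% of other nuclear peaks. The words were picked on peaks that include the single promoters, so a higher share outside the members follows in part from that choice. Members with AGACGCAG had a median rank of 1116 in the thresholded list and those without it 1077. The order was the opposite in both replicate lists (889 with and 1126.5 without in replicate 1, 1198 and 1278 in replicate 2).

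Words of 6 bases were then picked from the members themselves. They were chosen at the odd-ranked 168 members as those most in excess over the middle of 1275 divergent pairs without any thresholded peak, and are described in the even-ranked 168. The first, GAGAAA, was in 42.9% of even-ranked members, 21.4% of their flanks and 27.3% of unbound pairs. The other 4 each hold the dinucleotide CG. GAGCGC was in 25% of even-ranked members (interval 18.7 to 32.3), 4.17% of their flanks and 4.55% of unbound pairs. GCGCAC was in 25.6% of even-ranked members (19.2 to 32.9), 2.98% of flanks and 5.57% of unbound pairs. CGCGCC was in 23.8% of even-ranked members (17.6 to 31.0), 1.19% of flanks and 4.08% of unbound pairs. CGAGAG was in 18.5% of even-ranked members (12.9 to 25.2), 5.95% of flanks and 5.33% of unbound pairs. In single promoters and in the 835 autosomal peaks away from gene starts, GAGAAA (49.3% and 52.0%) and CGAGAG (21.9% and 30.3%) were more common than in even-ranked members. GAGCGC (21.9% and 13.9%), GCGCAC (19.4% and 10.5%) and CGCGCC (15.3% and 12.3%) were less common there. The words are not separate features, since the run GCGC is part of GAGCGC and also of GCGCAC and of CGCGCC. In the *cox-6B* sequence above, matches to GAGCGC and GCGCAC overlap in 1 run of capitals.

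At least 1 of the 4 words with CG was in 111 of 168 even-ranked members (66.1%), against 11.9% of their flanks, 17.2% of unbound pairs and 57.5% of single promoters. The share was thus far above unbound divergent promoters and close to that of bound single promoters. It was not particular to promoters, since 51.1% of the 835 autosomal peaks inside genes or intergenic also held at least 1. Windows at the middle of the gap, rather than at the summit, held 1 in 49.4% of 334 pairs with a member. Most of these windows contain the summit, and they include the odd-ranked members from which the words were picked. Matches lay near the summit: 90% of those of GAGCGC in members, 92.6% of GCGCAC, 86.0% of CGCGCC and 68.9% of CGAGAG lay within 50 bp of it, against 50.7% of GAGAAA. The median distance was 18.5 bp for GAGCGC and 48.5 bp for GAGAAA. Members with GAGCGC had a median rank of 888 and those without it 1112, an order seen in both replicates (942 against 1184 in replicate 1, 1015 against 1313 in replicate 2). For CGAGAG the ranks were 1085 with and 1079 without.

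Base composition around the summits had 1 narrow rise. In the 20 bp on either side of the summit 52.6% and 52.9% of bases were G or C, and at 120 to 140 bp to the left 27.5% were. Single promoters had 51.9% and 51.3% at the summit and 32.0% at that distance. Over the 200 bp at the summit members had a median G and C content of 38.0% and 11 CG dinucleotides, and single promoters 40.5% and 11. In windows at the middle of the gap, unbound pairs had 32.5% and 6. The same windows in pairs with a member had 35.5% and 9, a smaller difference. The excess of words with CG therefore went along with an excess of CG itself, and its part in the word counts was not tested. The 168 stronger members had a median of 12 CG dinucleotides and the 168 weaker ones 10.5.

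**Figure D5:**
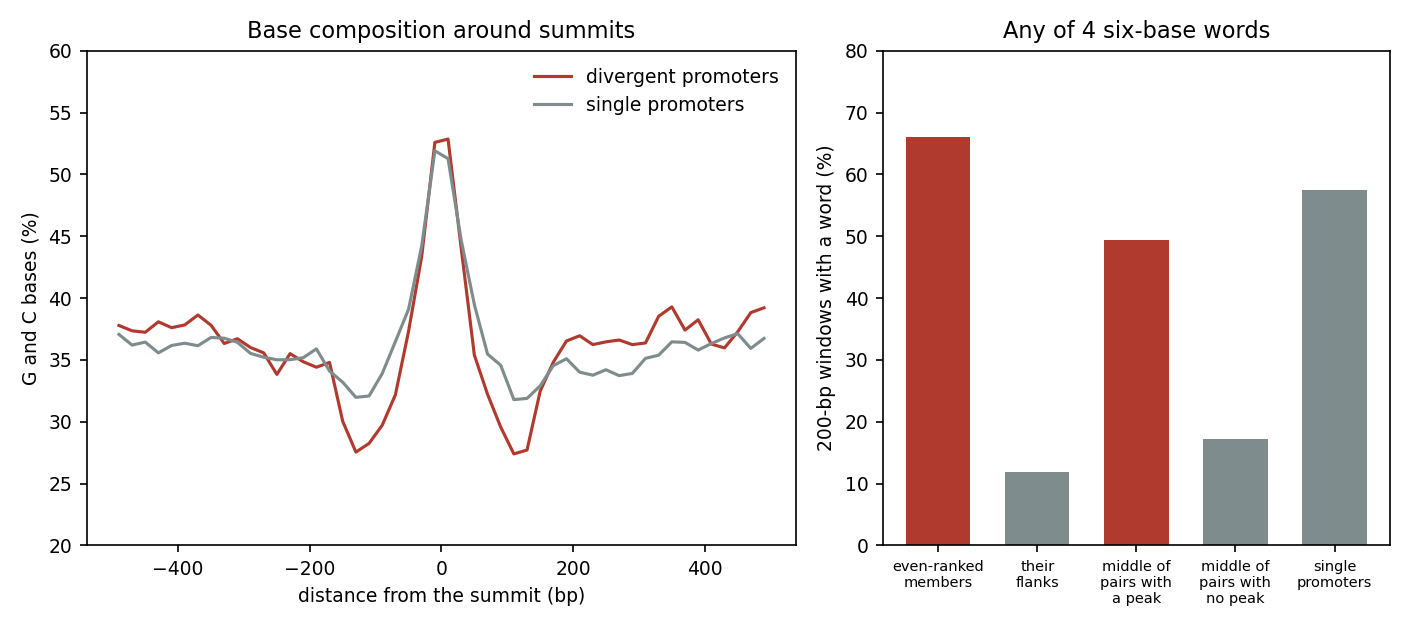
Left, G and C bases (%) in 20-bp steps against the distance from the summit in bp, over the 336 members and the 764 single promoters. Right, share of 200-bp windows with any of the 4 words that hold CG, in even-ranked members (66.1%), their flanks (11.9%), the middle of pairs with a member (49.4%), the middle of pairs with no thresholded peak (17.2%) and single promoters (57.5%).

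A last comparison asked whether members carry the upstream element of SNAPc target genes. An element of 22 bp was learnt from the sequence 100 to 20 bp upstream of 50 snRNA and spliced leader genes with a peak, with a score that about 1% of peak flanks reached. It was matched in 6 of 336 members (1.79%, interval 0.658 to 3.85), 1.49% of unbound pairs and 2.36% of single promoters. Peaks near small RNA, histone or ribosomal protein genes matched it in 28.3%, a set that includes the genes it was learnt from. Members and single promoters leave out summits within 500 bp of such genes, so their lower shares follow in part from that choice. The members' own flanks had 0 matches (exact upper bound 1.09%). The share in members had an interval that includes that of unbound pairs, and this says only that a match to these 22 positions was rare in the windows. The strongest of the 6 were *R04F11.5*/*R04F11.2* (signal 81.1), *gmps-1*/*cap-2* (77.0) and *snu-13*/*rsp-7* (76.7), the last a pair of splicing-related genes.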

How the data were processed

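The authors deposited lists of regions on ce11, with a signal value and a −log10 q-value for each region, per the file headers. The thresholded list rests on both replicates and was filtered by irreproducible discovery rate, and 30000 regions were listed for the pooled data and for each replicate. For the aligner, the peak caller, the threshold and the extraction the sources used here give nothing. Per the file headers a control alignment was also an input, not analysed here. The authors' −log10 q-values were not used for ranking. The deposited signal was ranked within each list and never set across lists. No read counts are given, so depth is unknown.

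Summits were assigned to genes by the RefSeq annotation of the WBcel235 assembly (46890 genes, 19971 protein-coding) with Python 3.11.15, numpy 2.4.6, pandas 2.3.3 and scipy 1.17.1. A replicate region was matched by any overlap, and the strongest was taken. The 8-base words could not share a run of 6 bases, and the 6-base words none of 5. Intervals are exact Clopper-Pearson intervals at 95% and cover counting error only, and neighbouring peaks are not independent. The labels call the replicates biological. The placing of peaks into sets was tested on simulated data.

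Members and lists were chosen with earlier results of these data known. The text names the pairs of the 20 strongest members, up to 3 genes of each list at the strongest members, pairs with 2 or more members, the shortest and widest gap, the 3 strongest members beyond rank 2672 in a replicate list, and the peaks next to the window and the threshold. One pair that this rule names is not reported here. Alternatives varied the window, the 5′ ends, the summit, the threshold, the sets left out, the replicates, the gap limit, the overlap and the word window. The lists on ce10 were not used.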

Additional observations from a re-analysis of the deposited data

How the results depend on the processing

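Of 40 alternatives over 7 results, 25 left the value within the range set for it and 15 moved it. Only the difference in median rank has a sign that could reverse, and it did not. The other results are counts and shares. With a window of 250 bp the members numbered 152, 9.21% of pairs held one and the difference in median rank from single promoters was -284 places. In the stronger 50% of the list there were 199 members, 12% of pairs held one and the difference was -38.5 places. The share of pairs was 26.2% with a window of 1000 bp, 17.0% with the 5′ ends of all annotated mRNAs, 22.7% with summits near small RNA, histone and ribosomal protein genes kept, and 28.8% of pairs at most 500 bp apart. Leaving out replicate 1 or replicate 2, so that the first 2672 regions of the other list stood in, gave 302 to 320 members, 92.5% to 93.4% of summits between the 5′ ends, 18.2% to 19.3% of pairs, and rank differences of -296 to -147 places. The share within the first 2672 regions of both lists was 54.2% when an overlap of 50% of both lengths was asked for (56.5% of all thresholded peaks, so that members were then below the background), and 76.8% for the stronger 168 members within the first 1336. The share of even-ranked members with any of the 4 words that hold CG was 56.5% in 100 bp and 71.4% in 400 bp, 2 settings chosen after seeing the data. The cause of these shifts was not tested. No paired analysis was possible because there was 1 group. Without read counts, no error on a single peak's signal is known beyond the spread of the 2 replicates.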

Other observations

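Of the 336 members, 37 also had the 5′ end of another noncoding RNA gene within 500 bp of the summit, 6 that of a piRNA gene and 1 that of an antisense RNA gene. These were 43 members in all, 1 of them with more than 1 such type. Among the 20 strongest members, *T28D9.11*/*T28D9.1*, *sec-61.B*/*trap-3* and *C17H12.2*/*vha-8* had such a noncoding RNA gene. *mcrs-1*/*atp-1* and *hda-6*/*F41H10.4* had a piRNA gene, and the others of the 20 had neither. No share over other peaks or over pairs without a member was counted, so no excess can be read from these counts. Which of the nearby genes SNPC-4 serves at such members was not tested. Of all members, 12 had more than 1 qualifying pair of 5′ ends, and the values above are for the nearest. Of the members, 221 (65.8%) lay in the central 50% of their chromosome, where 58.7% of all divergent pairs lay.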
